A study of Homo sapiens with 4 samples.

Results

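The MHC class I antigen presentation genes considered here were HLA-B, HLA-C, HLA-E, B2M, TAP1, TAP2, TAPBP, PSMB8 and PSMB9. They were chosen by gene symbol as central parts of that pathway, and all 9 were listed among the 19732 gene symbols of the A549 table. The series profiled RNA of 2 human lung cancer cell lines, H1299 and the adenocarcinoma line A549. Each line had a control sample and a sample with knockdown of RBM4, a protein that binds RNA and acts in splicing and translation. There were 4 samples with 1 library each, and the titles of the knockdown samples carry the letters sh, with no reagent sequence or clone named in the labels. These genes are also listed in the H1299 table, but its columns of values could not be matched to samples by name, so H1299 levels were not analysed here. Every value below is from 1 library of A549 control cells or 1 library of A549 cells with RBM4 knockdown, so no difference has a replicate error and no test was run.

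MHC class I molecules display short peptides from inside the cell at its surface, where cytotoxic T cells inspect them. Proteasomes cut proteins into peptides, the TAP transporter moves the peptides into the endoplasmic reticulum, and tapasin holds a peptide-receptive class I molecule next to the transporter. The class I molecule is a heavy chain, encoded by an HLA gene, joined to the invariant light chain beta-2-microglobulin. Interferon raises many genes of this pathway, and loss of it is known in lung cancers as a route of immune escape.

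Values are FPKM (fragments scaled by transcript length and library size), summed over the listed protein-coding transcripts of a gene. RBM4 itself had 59.4 FPKM in control cells and 30.6 FPKM after knockdown, a log2 difference of -0.93. That direction is the only check of which column is which. The column with the cell line's name alone was read as the control, and the other, whose name matches no label, as the knockdown. Differences are given as log2 of (knockdown FPKM + 1) / (control FPKM + 1), which shrinks the differences of low genes. Of 12230 genes that reached 1 FPKM in a library, 607 (4.96%) were at least 2-fold higher, 275 (2.25%) were at least 2-fold lower and 46.6% lay above 0. With the libraries scaled to an equal total, 925 of 12728 were higher and 243 lower. With mitochondrial genes also left out 835 of 12300 were higher and 180 lower. The median over all genes, -0.04, moved to 0.07 and 0.12 under these rescalings. Mitochondrial transcripts held 18.6% of the control total and 21.7% of the knockdown total.

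The genes for the class I molecule itself were higher in the knockdown library, while those for peptide transport, loading and the inducible proteasome lay closer to their control levels. All 9 genes were at 1 FPKM or more in both libraries. Of them, 2 were at least 2-fold higher (4.96% of all genes were), none was 2-fold lower (2.25%), and 8 had a difference above 0 (46.6%). The median difference was 0.41, against -0.04 over all genes. The 4 genes of heavy and light chains ran from 0.56 to 1.35, and the 5 of transport, loading and proteasome ran from -0.08 to 0.41, so the ranges did not overlap. This split by role was seen in the values and was not tested.

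**Figure D1:**
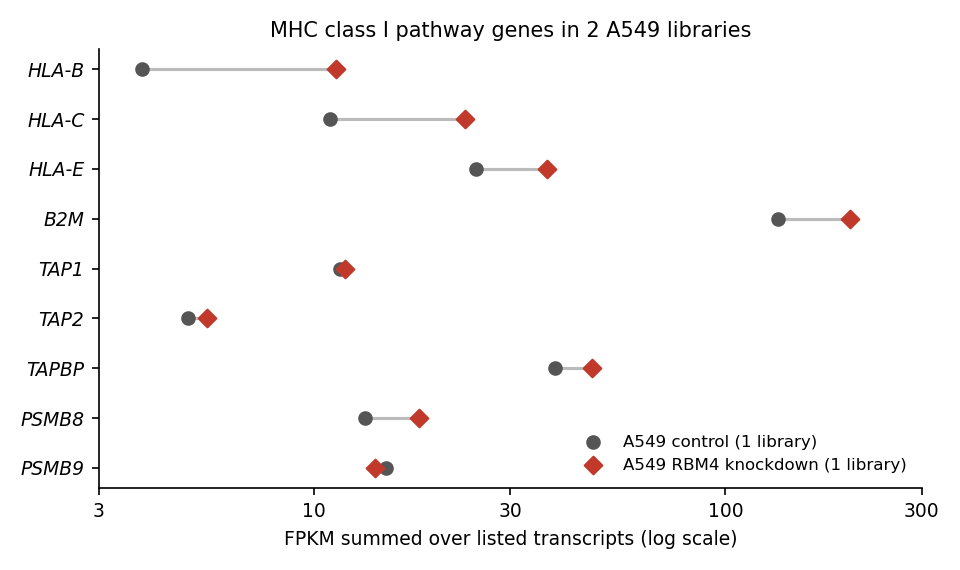
FPKM of each gene, summed over its listed transcripts (log axis), in the A549 control library (grey circles) and the A549 RBM4 knockdown library (red diamonds), with 1 library per group and no error bars. HLA-B shows the widest gap, from 3.81 to 11.3 FPKM, while the points of TAP1 and PSMB9 nearly coincide.

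HLA-B encodes a classical heavy chain, which presents peptides to T cells. It had 3.81 FPKM in control cells and 11.3 FPKM after knockdown, a log2 difference of 1.35, and 2.33% of all genes had a higher one. It was the lowest of the 9 genes in the control library and the eighth in the knockdown library, where TAP2 was lower. The gene (ENSG00000234745) spans chromosome 6, 31269491 to 31357188 on the minus strand of hg38. Its listed transcripts lie between 31353872 and 31357188. The longer span, which reaches HLA-C and shares exon positions with it, comes from other annotated transcripts. All of its FPKM was assigned to ENST00000412585, a transcript of 8 exons and 362 codons, and ENST00000434333 was listed at 0 in both libraries.

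HLA-C, the other classical heavy chain gene of the set, also serves as a ligand of inhibitory receptors on natural killer cells. It had 10.9 FPKM in control cells and 23.2 FPKM after knockdown, a difference of 1.02, with 4.75% of all genes higher. The gene (ENSG00000204525) lies on chromosome 6, 31268749 to 31272130, minus strand. The 2-fold call depended on summing transcripts. The leading transcript, ENST00000376228, had 9.89 FPKM in control cells and 16.5 FPKM after knockdown, a difference of 0.69. The shorter ENST00000415537, annotated as 782 bases that are all coding, had 0.71 FPKM in control cells and 6.68 FPKM after knockdown (2.17). Its share of HLA-C was 6.45% in control cells and 28.8% after knockdown, while the leading transcript held 90.5% and 71.2%. Taking the highest transcript alone therefore leaves HLA-C short of 2-fold.

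HLA-E encodes a non-classical heavy chain that presents peptides derived from other class I leader sequences to natural killer cell receptors. It had 24.7 FPKM in control cells and 36.9 FPKM after knockdown (0.56), the highest heavy chain level of the 3 in both libraries. It lies on chromosome 6, 30489467 to 30494205, plus strand (ENSG00000204592), and 1 transcript was listed. The level of HLA-E was 1.68 times the sum of HLA-B and HLA-C in control cells and 1.07 times after knockdown, so HLA-B and HLA-C made up more of the total of these 3 genes after knockdown. HLA-B stood at 34.9% of the HLA-C level in control cells and at 48.6% in the knockdown library. HLA genes are highly variable between genomes and resemble each other, so reads may have been lost or shared between them. How far that reaches into these levels was not tested.

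B2M, the light chain shared by all class I molecules, was the most abundant of the 9 genes in both libraries. It had 134 FPKM in control cells and 200.3 FPKM after knockdown, 149% of the control and a difference of 0.57. It is the only one outside chromosome 6, at chromosome 15, 44711487 to 44718877, plus strand (ENSG00000166710). Its difference was close to that of HLA-E and lower than those of HLA-B and HLA-C. B2M stood at 3.41 times the summed HLA-B, HLA-C and HLA-E in control cells and at 2.81 times after knockdown, with sums of 39.4 FPKM and 71.4 FPKM. B2M carried 3 listed transcripts. ENST00000558401, which encodes the full chain of 119 codons, had 60.2 FPKM in control cells and 96.8 FPKM after knockdown (0.68). ENST00000544417, annotated with 101 codons, had 64.8 FPKM and 95.4 FPKM (0.55). ENST00000559916, also annotated with 119 codons, had 9.40 FPKM and 8.08 FPKM (-0.20). The 2 abundant transcripts were both higher, each holding between 44.8% and 48.3% of B2M.

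The 250 bases before a RefSeq start of 4 of these genes are shown. They were picked because HLA-B, HLA-C and B2M were higher in the knockdown library. TAP1, which holds the same kinds of motif before the start shown, was near its control level. Sequences are from RefSeq (GRCh38.p14), written 5′ to 3′ on the gene's strand, and the table held windows for 8 of the 9 genes, HLA-E being the exception. They are the reference sequence, and the alleles of A549 were not read. Capitals mark matches on either strand to AANNGAAA, a motif bound by interferon regulatory factors (IRF), or to the NF-kB consensus, and adjacent capitals can be overlapping matches.
HLA-B, chr6:31357180-31357429, minus strand: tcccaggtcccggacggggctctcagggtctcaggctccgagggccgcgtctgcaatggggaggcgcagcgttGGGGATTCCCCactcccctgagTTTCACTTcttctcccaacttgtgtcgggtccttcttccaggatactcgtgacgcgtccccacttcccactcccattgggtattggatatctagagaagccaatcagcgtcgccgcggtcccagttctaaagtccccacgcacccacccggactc
HLA-C, chr6:31272093-31272342, minus strand: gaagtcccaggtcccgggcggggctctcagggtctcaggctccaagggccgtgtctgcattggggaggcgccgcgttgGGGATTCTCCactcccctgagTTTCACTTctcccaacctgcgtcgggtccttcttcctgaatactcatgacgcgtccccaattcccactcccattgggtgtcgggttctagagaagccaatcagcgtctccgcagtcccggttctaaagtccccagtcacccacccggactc
B2M, chr15:44711267-44711516, plus strand: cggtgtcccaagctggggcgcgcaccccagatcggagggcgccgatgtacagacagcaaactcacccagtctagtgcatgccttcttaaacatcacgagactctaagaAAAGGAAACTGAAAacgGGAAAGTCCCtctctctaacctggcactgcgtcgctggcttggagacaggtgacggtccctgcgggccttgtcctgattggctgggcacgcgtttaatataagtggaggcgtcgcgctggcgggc
TAP1, chr6:32853705-32853954, minus strand: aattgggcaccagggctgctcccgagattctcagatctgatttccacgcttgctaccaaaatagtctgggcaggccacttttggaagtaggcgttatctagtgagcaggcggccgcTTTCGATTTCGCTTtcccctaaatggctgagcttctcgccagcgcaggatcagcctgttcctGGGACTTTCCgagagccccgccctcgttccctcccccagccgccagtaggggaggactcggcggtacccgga
The windows of HLA-B and HLA-C were 89.0% identical when aligned, with 226 identical bases over 254 aligned positions. Both held the NF-kB consensus (at 2 overlapping positions in HLA-B) followed by an IRF match, which began 155 bases before the start in HLA-B and 151 bases before it in HLA-C. In B2M the order was reversed, with 2 overlapping IRF matches and then an NF-kB match. The TAP1 window shown held 2 overlapping IRF matches and, nearer the start, an NF-kB match. A window before another RefSeq start of TAP1, not shown, held no match to either motif. IRF matches were present in 20.3% and NF-kB matches in 9.96% of 35114 promoter windows of the same length. Among the 8 genes with a window, 6 had an IRF match and 5 an NF-kB match in any of their windows, and for PSMB8 and PSMB9 no IRF letters were found there. TGACG, the core of a cyclic AMP response element, occurred on either strand in HLA-B, HLA-C and B2M and not in this TAP1 window, and was found in 21.2% of all windows. CCAAT, the box bound by the factor NF-Y, occurred on either strand in all 4 windows shown and in 32.0% of all windows. These matches describe letters of the reference and do not show binding, and a missing match says nothing of a factor.

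TAP1 and TAP2 encode the subunits of the peptide transporter. TAP1 had 11.6 FPKM in control cells and 11.9 FPKM after knockdown (0.04), with 43.4% of all genes higher, and 1 transcript was listed. TAP2 had 4.94 FPKM and 5.49 FPKM (0.13). TAP1 therefore stood at 2.34 times TAP2 in control cells and 2.17 times after knockdown. TAP1 (ENSG00000168394) lies on chromosome 6, 32845209 to 32853978, and TAP2 (ENSG00000204267) at 32821833 to 32838780, both on the minus strand. TAP2 shares exons with another annotated gene on its strand, so its level is uncertain.

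The TAP2 total hid a difference between its transcripts. ENST00000374897, with 686 codons and 5684 bases, had 3.39 FPKM in control cells and 5.14 FPKM after knockdown (0.48). ENST00000374899, with 653 codons, ends at another position downstream and had 1.55 FPKM in control cells and 0.35 FPKM after knockdown (-0.92). It passed 1 FPKM only through the control library, so it had to lie below 0. The first transcript held 68.6% of TAP2 in control cells and 93.7% after knockdown. All 4 values are low, and the reads behind them are unknown.

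TAPBP encodes tapasin, which bridges the transporter and the class I molecule. It had 38.4 FPKM in control cells and 47.3 FPKM after knockdown (0.29), which made it the second most abundant of the 9 genes in both libraries. TAPBP (ENSG00000231925) lies on chromosome 6, 33299694 to 33314387, minus strand. Its leading transcript ENST00000434618 had 33.8 FPKM and 44.9 FPKM (0.40). The 3 other transcripts above 1 FPKM in a library were all lower in the knockdown library, by differences from -0.30 to -0.75, so the leading transcript held 88.1% of TAPBP in control cells and 95.0% after knockdown. Of these, ENST00000467025 and ENST00000426633 passed 1 FPKM only through the control library, so they had to lie below 0.

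PSMB8 and PSMB9 encode inducible catalytic subunits that replace PSMB5 and PSMB6 in the immunoproteasome, which favours peptides suited to class I molecules. PSMB8 had 13.3 FPKM in control cells and 17.96 FPKM after knockdown (0.41), with 19.2% of all genes higher. PSMB9 had 14.9 FPKM and 14.1 FPKM (-0.08), and 53.9% of all genes had a higher difference. PSMB9 was the only gene of the 9 below 0, and it was above 0 at 0.025 after rescaling to the same total and at 0.076 in the setting without mitochondrial genes. PSMB8 (ENSG00000204264) lies on chromosome 6, 32840717 to 32844703, minus strand, and PSMB9 (ENSG00000240065) at 32844136 to 32859585, plus strand. PSMB8 and PSMB9 have annotated exons that overlap on opposite strands. The only PSMB9 transcript with FPKM, ENST00000374859, spans 32854161 to 32859585 and does not reach PSMB8. Both genes, like TAP1, overlap the antisense RNA PSMB8-AS1. No strand setting is given in the sources used here, so reads from the overlaps could not be assigned with certainty. The TAP1 start whose window is shown and the RefSeq start of PSMB9 lie 488 bases apart and point away from each other. TAP1 also has another RefSeq start. These neighbours had the 2 differences nearest to 0 in the set.

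Both PSMB8 transcripts above 1 FPKM were higher in the knockdown library. ENST00000374882 had 10.9 FPKM in control cells and 13.5 FPKM after knockdown (0.28), and ENST00000374881, which starts further upstream, had 2.37 FPKM and 4.08 FPKM (0.59). All of PSMB9 was assigned to ENST00000374859, and its 2 other transcripts were listed at 0. Over the 9 genes 25 transcripts were listed, of which 17 reached 1 FPKM in either library and 5 were at 0 in both. Of those 17, the listed HLA-B transcript and the shorter HLA-C transcript were at least 2-fold higher and none was 2-fold lower, against 8.63% and 8.24% of all transcripts measured. The shorter HLA-C transcript passed 1 FPKM only through the knockdown library, so it had to lie above 0.

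**Figure D2:**
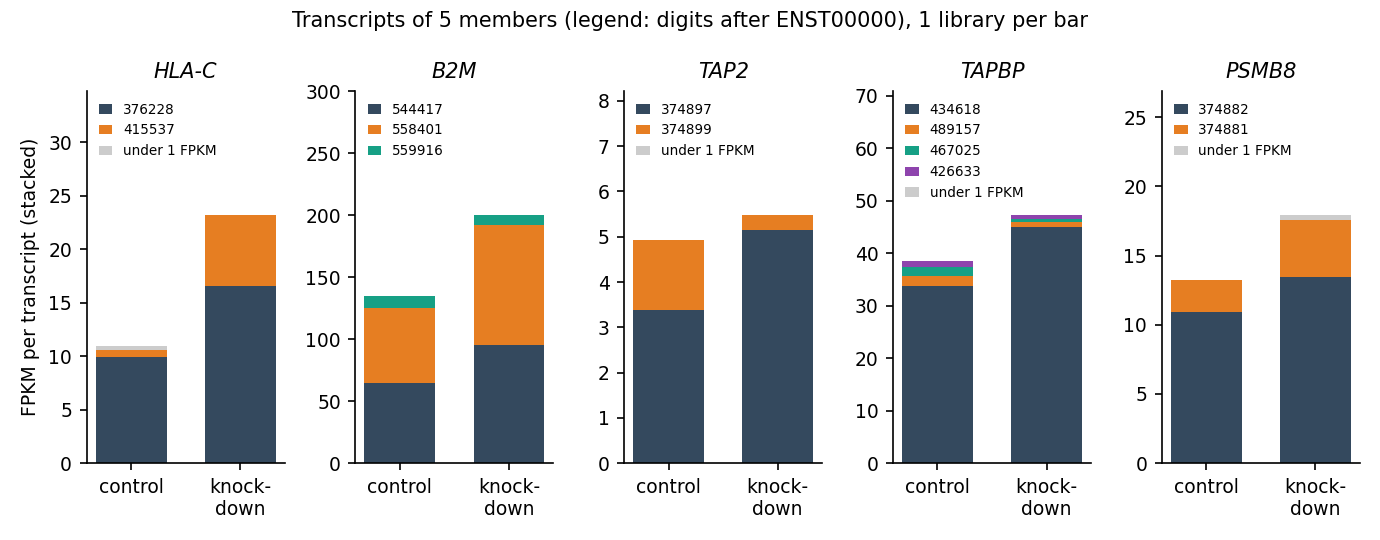
FPKM per transcript, stacked to the gene total, for the 5 genes with more than 1 transcript above 1 FPKM. Bars are the A549 control and RBM4 knockdown libraries (1 library per bar, each panel with its own linear axis from 0). Transcripts under 1 FPKM in both libraries are pooled in grey. The shorter HLA-C transcript (ENST00000415537) is 0.71 FPKM in control cells and 6.68 FPKM after knockdown, and the second TAP2 transcript (ENST00000374899) is 1.55 FPKM and 0.35 FPKM.

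The inducible subunits were minor beside the constitutive ones they replace. PSMB8 was at 10.5% of the level of PSMB5 (126 FPKM) in control cells and at 17.2% (104 FPKM) in the knockdown library. PSMB9 was at 6.30% of PSMB6 in the control, where PSMB6 had 237 FPKM, and at 7.31% in the knockdown library, where it had 193 FPKM. The third inducible subunit gene, PSMB10, had 7.97 FPKM and 7.50 FPKM (-0.08). It was at 5.18% of PSMB7 in control cells and 4.96% after knockdown, PSMB7 having 154 FPKM and 151 FPKM. The log2 change of the ratio was 0.71 for PSMB8, 0.21 for PSMB9 and -0.06 for PSMB10. Of the constitutive core and cap genes 16 of 17 lay below 0, where 53.4% of all genes lay at or below 0. With mitochondrial genes left out 13 did, and the median over all genes was then 0.12. In the main setting the median of the 17 was -0.30 and none differed by 2-fold. The lowest were the core subunit genes PSMA2 and PSMA6, both at -0.51, and the highest were PSME4, a proteasome activator at 0.24, and PSMB7 at -0.02. PSME1 and PSME2, which encode an interferon-inducible proteasome activator, had 82.5 FPKM and 92.0 FPKM (0.15) and 91.4 FPKM and 99.8 FPKM (0.13).

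**Figure D3:**
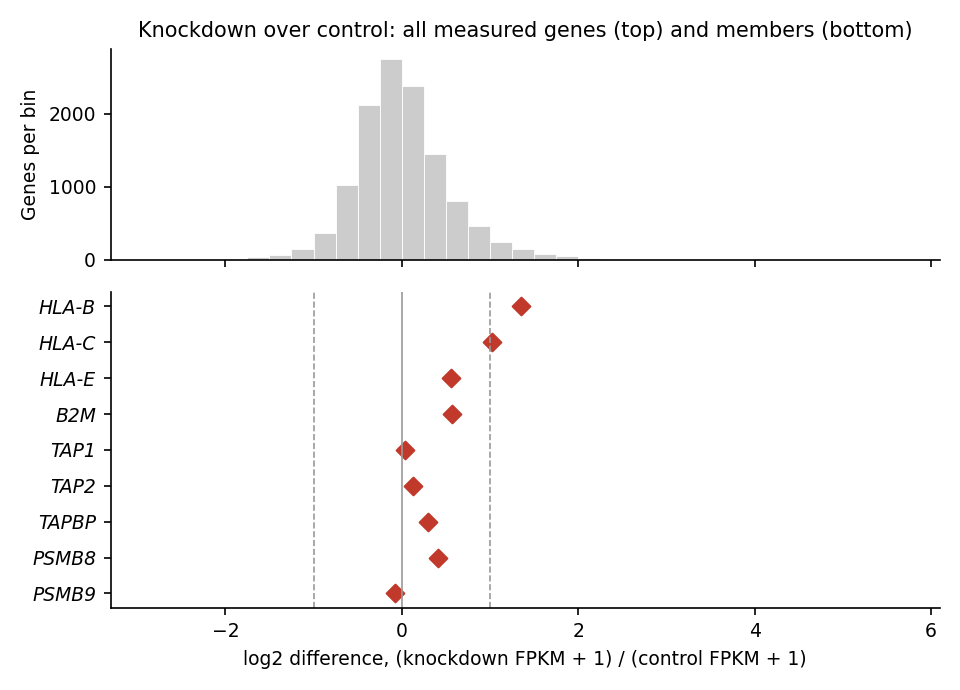
Top, the number of genes per bin of log2 difference (bin width 0.25) for the 12230 genes that reached 1 FPKM in an A549 library. Bottom, the difference of each of the 9 genes on the same axis, with the solid line at 0 and dashed lines at 2-fold, where HLA-B (1.35) and HLA-C (1.02) lie past the 2-fold line and TAP1 (0.04) and PSMB9 (-0.08) lie at the centre of the distribution.

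Of 7 other class I heavy chains and class I-like partners of B2M 4 were measured, 3 of them above 0 (46.6% of all genes), with a median of 0.80. Over all 7, with no filter on low values, the median was 0.037. None was 2-fold higher, against 1 with a pseudocount of 0.1, after rescaling, or once the mitochondrial genes were dropped. Over all genes these settings gave 985 of 12230, 925 of 12728 and 835 of 12300. HLA-F, a non-classical heavy chain gene, had 2.69 FPKM in control cells and 5.96 FPKM after knockdown (0.91). MR1, which presents vitamin B metabolites, had 7.03 FPKM and 13.0 FPKM (0.80), and FCGRT, the chain of the neonatal Fc receptor, had 16.03 FPKM and 28.5 FPKM (0.80). HFE, which regulates iron uptake, was lower at 10.9 FPKM and 7.43 FPKM (-0.49). HLA-G was listed at 0 in both libraries.

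The general machinery of peptide supply and loading was at similar levels or lower. The 9 peptide loading and trimming genes of the endoplasmic reticulum had a median of -0.01, which turned to 0.073 after rescaling and 0.031 after centring, with none past 2-fold in either direction. ERAP2 and ERAP1, which trim peptides, were highest at 0.48 and 0.20, and the folding sensor gene UGGT1 (-0.31) and the glucosidase gene GANAB (-0.17) were lowest. All 9 cytosolic peptidase genes were below 0, where 53.4% of all genes lay at or below 0. With the mitochondrial genes dropped 6 were, and the median over all genes was then 0.12. In the main setting the median of the 9 was -0.21, from BLMH (-0.06) and NRDC (-0.11) to THOP1 (-0.30) and LAP3 (-0.44). The 14 housekeeping genes read as controls had a median of -0.23, from GUSB (0.13) and YWHAZ (0.09) to TBP (-0.48) and TFRC (-0.56).

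Among 15 measured regulators of class I transcription 1 gene was 2-fold higher, a share near the 4.96% of all genes. NLRC5, the transactivator that drives class I genes, had 0.60 FPKM in control cells and 3.92 FPKM after knockdown (1.62), and it passed the filter only through the knockdown library. IRF1, an interferon-induced activator of class I, had 12.4 FPKM and 14.55 FPKM (0.21). The lowest were the NF-Y subunit genes NFYA (-0.59) and NFYB (-0.44), and the median of the list was -0.08 (0.023 after rescaling). Interferon receptor and JAK-STAT genes had a median of -0.18 over 13 genes, with none past 2-fold. STAT2 had 6.87 FPKM and 11.6 FPKM (0.68) and its partner IRF9 had 5.83 FPKM and 9.42 FPKM (0.61). The lowest were the receptor gene IFNAR2, at 24.3 FPKM and 17.0 FPKM (-0.49), and SOCS3, a feedback inhibitor of cytokine signalling, at 16.9 FPKM and 12.9 FPKM (-0.36).

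Of 50 interferon-induced genes listed 36 were measured, with a median of 0.41, and 28 lay above 0, against 46.6% of all genes. Of these, 5 were at least 2-fold higher (4.96% of all genes) and none was 2-fold lower (2.25% of all genes). With a pseudocount of 0.1 the 2-fold higher genes were 10, beside 985 of all 12230 genes. MX1, OASL, GBP2, GBP3 and TRIM22 passed the filter only through the knockdown library, so these 5 had to lie above 0, and OASL is among the 2-fold higher genes. Over all 50, with no filter, the median was 0.18. The highest were OASL, an antiviral protein gene, at 0.27 FPKM and 2.53 FPKM (1.48), and IFITM3, which blocks virus entry, at 2.63 FPKM and 8.9997 FPKM (1.46). The lowest were IFI35 (-0.78) and the RNA sensor gene IFIH1 (-0.60). IFIH1 passed the filter only through the control library, so it had to lie below 0. Of 8 interferon genes only IFNE was measured, at 1.92 FPKM and 2.83 FPKM (0.39), and 6, including IFNG and IFNB1, were listed at 0 in both libraries.

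Of 12 measured ligands that meet immune cells beside class I 9 lay above 0 (46.6% of all genes), with a median of 0.55 (0.42 over all 14 with no filter). At least 2-fold higher were 3 (4.96% of all genes). With a pseudocount of 0.1 there were 5, beside 985 of all 12230 genes, and after rescaling also 5, beside 925 of all 12728. CD274 and PDCD1LG2 passed the filter only through the knockdown library, so both had to lie above 0, and CD274 is among the 2-fold higher genes. CD274, which encodes the checkpoint ligand PD-L1, had 0.26 FPKM in control cells and 3.73 FPKM after knockdown (1.90). ULBP2, a stress ligand for natural killer cells, had 1.41 FPKM and 4.99 FPKM (1.31). MICA, another such ligand, was lowest at 14.7 FPKM and 8.61 FPKM (-0.70), and CD276 followed at -0.13.

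**Figure D4:**
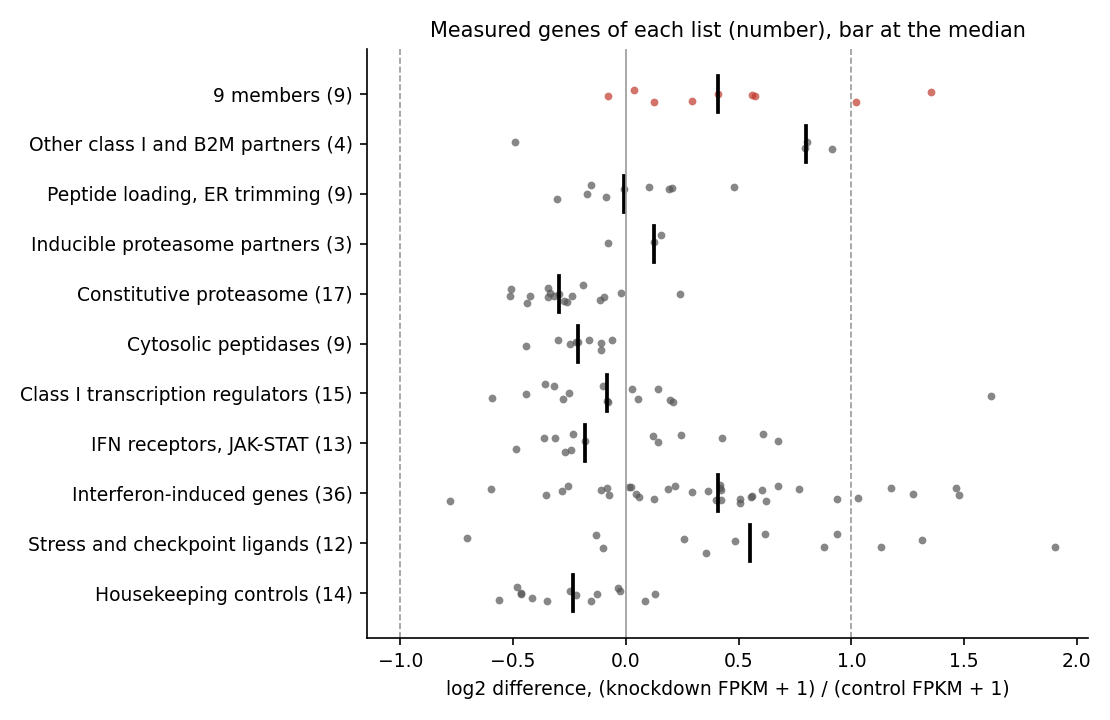
The log2 difference of each measured gene (points, spread vertically only for legibility) in the 9 class I genes and in 10 gene lists, with the number of measured genes in brackets and a black bar at the median. The medians of the 9 genes (0.41), interferon-induced genes (0.41), other class I genes and B2M partners (0.80) and ligands (0.55) lie to the right of 0, and those of the constitutive proteasome (-0.30), peptidases (-0.21) and housekeeping genes (-0.23) to the left.

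Class I genes are expressed by most cell types, so markers of other cells were read beside them. MHC class II genes, typical of professional antigen-presenting cells, were low, since 3 of 14 were measured, and 8 were listed at 0 in both libraries, among them HLA-DRA and CD74. The measured ones were CTSS, a lysosomal protease gene, at 4.45 FPKM and 10.4 FPKM (1.07), HLA-DMA at 2.37 FPKM and 1.31 FPKM (-0.54) and HLA-DMB at 1.31 FPKM and 0.36 FPKM (-0.76). HLA-DMB passed the filter only through the control library, so it had to lie below 0. Of 16 blood and immune cell markers 3 were measured, and the summed level of the list was 9.98 FPKM in control cells and 32.2 FPKM after knockdown. Most of that was CD68, a lysosomal protein gene, at 6.90 FPKM and 25.8 FPKM (1.76), with CD14 at 2.16 FPKM and 4.32 FPKM (0.75) and CD79A at 0.21 FPKM and 1.12 FPKM (0.81). CD79A passed the filter only through the knockdown library, so it had to lie above 0. PTPRC, the marker of all white blood cells, was listed at 0 in the control and had 0.047 FPKM after knockdown, and 10 others, including CD3E, MS4A1 and LYZ, were at 0 in both. Of 15 fibroblast and endothelial markers 2 were measured, and the list summed to 8.67 FPKM in control cells and 36.9 FPKM after knockdown, from THY1 (5.73 FPKM and 26.0 FPKM) and COL1A1 (2.61 FPKM and 9.47 FPKM). COL1A2 and PECAM1 were at or near 0 in both libraries. The part of these markers in the class I differences was not tested.

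The labels call A549 lung cancer cells, and keratin genes of epithelial cells were abundant, with KRT7 at 1880 FPKM and 2446 FPKM and KRT18 at 1853 FPKM and 912 FPKM. Of the same marker list EPCAM was low, at 2.74 FPKM in control cells and 2.75 FPKM after knockdown, as was CDH1, at 7.70 FPKM and 6.54 FPKM. VIM, also on that list, had 650 FPKM and 769 FPKM. The alveolar markers SFTPA1, SFTPB and NKX2-1 were listed at 0 in both libraries, and SFTPC was at 0 and 0.35 FPKM. Of the 14 markers 8 were measured, the highest differences being KRT19 (1.11) and KRT7 (0.38) and the lowest KRT18 (-1.02) and KRT8 (-0.89). With 1 library per group, fewer cells that express a gene and less of its RNA per cell cannot be told apart.

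Genes with the most similar levels over the 2 libraries, by Euclidean distance in log2 of FPKM plus 1, and outside the lists, were ZFP36L1, ACTN1 and ADAM9 for B2M, PALB2, PIGBOS1 and STYX for TAP1, and LFNG, HID1 and NPTXR for HLA-B. The closest, ZFP36L1, had 132 FPKM and 197 FPKM beside B2M, PALB2 had 11.5 FPKM and 11.8 FPKM beside TAP1, and LFNG had 3.83 FPKM and 10.8 FPKM beside HLA-B. With 2 libraries this nearness describes levels only.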

How the data were processed

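RNA of A549 and H1299 cells was sequenced after Trizol extraction and preparation with the Illumina TruSeq RNA kit, per the labels' protocols. The submitters' processing notes name build hg38 and the tools CASAVA 1.8.2, TopHat and Cufflinks. Their roles, the annotation release, strand setting and read filters are not given in the sources used here. What the authors deposited is FPKM per protein-coding transcript, a unit given by the file's name. Sequencing depth is unknown.

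Of the A549 columns, that with the cell line's name alone was read as the control and the other as the knockdown. The 3 value columns of the H1299 table matched no sample by name and were not used. FPKM was summed per symbol, genes at 1 FPKM or more in either library were kept, and differences used a pseudocount of 1. With 1 library per group no test was run, and differences of at least 2-fold were counted. H1299 results were not computed.

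The 9 genes and the 15 gene lists were chosen with earlier results of these data known. Of the listed genes 2 are not reported here and were left out of the lists. From each list the 2 highest and 2 lowest measured genes were named, or all where at most 6 were measured. HLA-G, IFNG, IFNB1, HLA-DRA, CD74 and the other markers at or near 0 were named after their values were seen, as were EPCAM, CDH1 and VIM. Exons and positions came from GENCODE 29, in which all 25 listed transcripts were found, and promoters from RefSeq. Analyses used Python 3.11.15, pandas and numpy, and fold counting was tested on simulated data. A total of 8 alternative settings were tried.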

Additional observations from a re-analysis of the deposited data

How the results depend on the processing

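HLA-B stayed past 2-fold under all 8 alternatives for differences, between 1.35 and 1.54. With the highest transcript per symbol HLA-C was 0.69, and 1 of the 9 genes was 2-fold higher. PSMB9 turned to 0.025 after rescaling and 0.076 in the setting without mitochondrial genes. Other directions of the 9 genes held, with the median between 0.41 and 0.57. Over the measured genes of the 15 lists, 14 were 2-fold higher and 1 lower, beside 4.96% and 2.25% of all genes. A pseudocount of 0.1 gave 23 and 3, and 0 were lower after rescaling (19 higher), with mitochondrial genes left out (17) and after centring (14). Of the 14 in the main setting, NLRC5, OASL and CD274 passed the filter only through the knockdown library, so they had to lie above 0. Of the 607 over all genes 179 passed it only that way. List medians that changed sign were peptide loading (0.073 rescaled, 0.10 without mitochondrial genes, 0.031 centred), class I regulators (0.023 and 0.075 under the first 2 of these), MHC class II (1.07 at a minimum of 5 FPKM and 0.23 with the highest transcript) and lung epithelial markers (0.017 and 0.14 likewise, and 0.038 without mitochondrial genes). The 2-fold higher count over all genes rose with a pseudocount of 0.1, after rescaling, without mitochondrial genes and after centring. At a minimum of 5 FPKM 413 of 9729 genes were higher and 245 lower. With the highest transcript 535 of 11928 were higher and 285 lower. Of 12230 genes, 607 were higher and 275 lower, against 985 and 418 with a pseudocount of 0.1 and 663 and 248 after centring. Rescaled, 925 and 243 of 12728 were, and without mitochondrial genes 835 and 180 of 12300. Beyond what rescaling, fewer genes or fewer transcripts do by construction, the cause was not tested. Using 1 gene identifier per symbol left the 9 values as they were. No paired analysis was possible because each group has 1 library. With no depth or replicate, the error of every difference is unknown.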
